A study of Mus musculus with 12 samples.

Results

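The nuclear-encoded subunits of the respiratory chain and of ATP synthase were followed in mouse breast cancer cells with and without the receptor AXL, in low and in normal oxygen. Members were protein-coding genes whose symbols carry the names of complex I (Nduf), complex II (Sdh), complex III (Uqcr and Cyc1), complex IV (Cox) and ATP synthase (Atp5) subunits. Ndufa4l2, Cox4i1 and Cox4i2 were set aside and are given separately. The names matched 83 of the 54232 genes counted, and 79 had at least 10 counts in 3 libraries: 36 of complex I, 4 of complex II, 9 of complex III, 13 of complex IV and 17 of ATP synthase. Of the 4 others, a second Atp5o identifier and Cox8c had 0 counts in every library, Cox6b2 had 0 to 2 and Cox8b had a single count. Complexes were assigned by symbol, so Ndufa4, today assigned to complex IV, counts among the 36 of complex I.

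Complexes I to IV pass electrons from NADH and succinate through ubiquinone and cytochrome c to oxygen, and ATP synthase uses the proton gradient that complexes I, III and IV build. Most subunits are encoded in the nucleus and imported, while a core set is encoded in mitochondrial DNA. Low oxygen is known to lower respiration in many cells, in part by exchanging single subunits, such as Cox4i1 for Cox4i2 in complex IV. Several complex IV subunits exist as a ubiquitous and a heart and skeletal muscle form, and several ATP synthase and cytochrome oxidase genes have close paralogs.

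The 12 libraries came from MMTV-NIC mammary tumour cells, in which the MMTV promoter, active in mammary epithelium, drives activated Neu (ErbB2) together with Cre recombinase. There were 3 libraries in each of 4 groups: AXL KO in 1% oxygen (hypoxia), AXL WT in 1% oxygen, AXL KO in 21% oxygen (normoxia) and AXL WT in 21% oxygen. The labels give neither the length of hypoxia nor how many knockout clones were used. They do not say whether replicates were separate cultures, so p-values here measure the spread among libraries alone, and that spread may be technical.

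Totals were 45297267 to 58775422 counts per library. Axl itself had 78 to 105 counts per AXL KO hypoxia library against 19395 to 28495 per AXL WT hypoxia library, and 164 to 200 per AXL KO normoxia library against 47960 to 57291 per AXL WT normoxia library. Epithelial markers summed to 2278 to 2376 CPM (counts scaled to library size) in AXL KO hypoxia, 953 to 4487 in AXL WT hypoxia, 2159 to 2446 in AXL KO normoxia and 3112 to 3202 in AXL WT normoxia, with none of the 5 at 0. Marker sums of other cell types also moved with the groups. In CPM, the 6 leukocyte markers summed to 49.0 to 55.6 in AXL KO hypoxia, 14.8 to 152 in AXL WT hypoxia, 59.6 to 85.3 in AXL KO normoxia and 10.8 to 12.3 in AXL WT normoxia, and Ptprc, the marker common to leukocytes, was at 0 in AXL KO hypoxia. The 5 fibroblast markers summed to 58.7 to 65.4 in AXL KO hypoxia, 72.1 to 96.1 in AXL WT hypoxia, 186 to 201 in AXL KO normoxia and 66.0 to 72.6 in AXL WT normoxia. The 4 endothelial markers summed to 15.5 to 17.4 in AXL KO hypoxia, 0.53 to 1.48 in AXL WT hypoxia, 3.14 to 4.35 in AXL KO normoxia and 0.335 to 0.599 in AXL WT normoxia. The 4 adipocyte markers summed to 4.55 to 4.61 in AXL KO hypoxia, 8.53 to 27.9 in AXL WT hypoxia, 8.65 to 13.6 in AXL KO normoxia and 33.8 to 41.8 in AXL WT normoxia. Of these 4, only Fabp4 had enough counts to be tested, and Lep was at 0 in every group. Markers of the same type did not all move alike. In hypoxia, AXL KO against AXL WT gave 8.72 (log2) for Kdr but -4.48 for Cdh5 and -1.65 for Pecam1 (endothelial). The Cdh5 and Pecam1 calls were lost without AXL WT hypoxia replicates 2 and 3. The same comparison gave 2.88 for Cd68 but -9.09 for Csf1r (leukocyte). Of 4 fibroblast markers tested, 2 were higher and 2 lower, with Col1a1 at 1.35 and Pdgfra at -2.59. Of the 5 epithelial markers, 2 were lower in AXL KO at either oxygen level and 3 were not called. Epcam was lower by -2.78 in hypoxia and -1.64 in normoxia, and Cdh1 by -2.76 and -0.96. The part of these markers in the results was not tested. The AXL WT hypoxia libraries spread far more than the others: the biological coefficient of variation was 0.0738 in AXL KO hypoxia, 0.4 in AXL WT hypoxia, 0.0895 in AXL KO normoxia and 0.0585 in AXL WT normoxia. Ribosomal RNA was 0.0928%, 0.52% and 0.284% of the total in replicates 1, 2 and 3 of AXL WT hypoxia, and 0.0882% to 0.131% in the other 9 libraries. Results that rest on AXL WT hypoxia are therefore also given without replicates 2 and 3 where leaving them out ended a call or moved a value or count by over 1.5 times, and for some others. Leaving both out keeps 1 AXL WT hypoxia library, so the group has no spread of its own and takes that of other groups. Calls that hold or end in that fit, which is among the 21 settings below, are therefore no measure of support. Which of the 3 libraries is typical of the group was not tested.

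Promoter sequence is shown for 4 members of the 8 whose hypoxia calls went the same way in both genotypes in all 21 alternative settings short of a minimum fold. Ndufv3, Cox6a1 and Uqcrh rose and Ndufs8 fell. Ndufa6, which rose, and Ndufa4, Ndufa10 and Cox6a2, which fell, also met this, and the choice among the 8 was made after their values were seen. Each window runs from 250 bases before to 50 after the RefSeq start in GRCm38.p6, written 5′ to 3′ on the gene's own strand. Ndufv3 is chr17:31519865-31520164 on the plus strand, Cox6a1 is chr5:115348909-115349208 on the minus strand, Uqcrh is chr4:116075021-116075320 on the minus strand, and Ndufs8 is chr19:3912725-3913024 on the minus strand. Capitals mark the words searched on both strands: ACGTG, the core of the hypoxia-inducible factor site (in Ndufv3), GCGCATGCG, the NRF1 word (in Cox6a1, where both strands overlap), and CCGGAAG, an ETS word bound by GABP, read as its reverse complement CTTCCGG (in Cox6a1, Uqcrh and Ndufs8).
Ndufv3: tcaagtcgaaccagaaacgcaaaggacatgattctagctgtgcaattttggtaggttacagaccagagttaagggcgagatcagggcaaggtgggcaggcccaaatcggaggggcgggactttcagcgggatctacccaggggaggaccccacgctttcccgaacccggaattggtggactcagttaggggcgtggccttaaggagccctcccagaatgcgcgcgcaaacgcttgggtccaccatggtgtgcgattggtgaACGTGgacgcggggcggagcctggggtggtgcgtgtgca
Cox6a1: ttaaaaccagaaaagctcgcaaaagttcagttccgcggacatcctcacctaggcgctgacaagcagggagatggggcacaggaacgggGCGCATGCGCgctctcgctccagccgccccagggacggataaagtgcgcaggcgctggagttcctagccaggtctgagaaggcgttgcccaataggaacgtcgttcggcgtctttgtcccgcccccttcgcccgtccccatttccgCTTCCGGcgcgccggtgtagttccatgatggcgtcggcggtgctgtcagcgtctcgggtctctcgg
Uqcrh: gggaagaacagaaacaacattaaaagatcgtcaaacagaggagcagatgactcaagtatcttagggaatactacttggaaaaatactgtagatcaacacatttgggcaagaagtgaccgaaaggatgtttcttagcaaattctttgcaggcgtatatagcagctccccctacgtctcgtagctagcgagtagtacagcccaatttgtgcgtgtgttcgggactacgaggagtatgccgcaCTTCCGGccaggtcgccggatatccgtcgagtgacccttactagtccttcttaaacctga
Ndufs8: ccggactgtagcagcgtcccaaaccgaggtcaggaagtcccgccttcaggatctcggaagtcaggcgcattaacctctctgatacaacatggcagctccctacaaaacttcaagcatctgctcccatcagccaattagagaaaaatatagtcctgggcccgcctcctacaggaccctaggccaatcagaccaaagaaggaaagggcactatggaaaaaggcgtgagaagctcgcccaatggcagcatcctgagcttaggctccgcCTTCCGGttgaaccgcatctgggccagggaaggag

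RefSeq windows matched 64 of the 79 members, in 69 windows, and were set beside all 32851 windows. The NRF1 word was in 11.6% of member windows against 1.75% of all windows. The ETS word was in 23.2% of member windows against 8.86% of all, and AAGATGG, a YY1 word, in 14.5% against 6.34%. ACGTG was in 23.2% of member windows against 19.6% of all. Among members called in hypoxia in both genotypes, ACGTG stood in 1 of 6 windows of those that rose and in 2 of 10 windows of those that fell. These are matches of letters and not sites of binding.

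Read per kilobase of exon, Cox6a1 was the highest member in AXL KO hypoxia, at 366 ± 23.2 CPM per kb (SD, n = 3), followed by Cox8a at 276 ± 6.72 and Atp5a1 at 215 ± 7.39. In AXL WT normoxia Cox8a led at 394 ± 19.9 CPM per kb, followed by Atp5a1 at 251 ± 13.4, Atp5b at 239 ± 10.5 and Cox6a1 at 225 ± 8.82. Cox8a and Cox6a1 are small subunits of cytochrome oxidase, and Atp5a1 and Atp5b are the α and β subunits of the ATP synthase head. In AXL WT normoxia Atp5a1 and Atp5b differed by less than the SD of Atp5a1, while the other neighbours named here differed by more than either SD. Ndufs5 was the lowest member with counts in every library in both of these groups, at 1.17 ± 0.276 CPM per kb in AXL KO hypoxia and 1.23 ± 0.249 in AXL WT normoxia, while in AXL WT hypoxia Atp5s was lower, at 0.686 ± 0.226 against 1.35 ± 0.302 for Ndufs5. Fragments that map to more than 1 place were not counted, and how far this lowers members with near-identical copies was not tested. The length used joins all annotated exons of a gene. It was 4237 bases for Atp5b and 3135 for Atp5a1, against 702 for Cox6a1 and 545 for Cox8a. Annotated exons that the cells do not use lower a value per kb, so the order by transcript length may differ and was not tested.

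Together the members took 0.557% to 0.608% of counts in AXL KO hypoxia, 0.727% to 0.831% in AXL WT hypoxia, 0.677% to 0.779% in AXL KO normoxia and 0.913% to 0.962% in AXL WT normoxia. AXL KO hypoxia was lowest and AXL WT normoxia highest, with no overlap between any of these ranges except AXL WT hypoxia and AXL KO normoxia. On scaled CPM the gap was smaller. The median member stood at -0.28, -0.12 and -0.19 (log2) from its AXL WT normoxia mean in the AXL KO hypoxia libraries, from -0.16 to 0.07 in AXL WT hypoxia, and at -0.18, 0.02 and -0.07 in AXL KO normoxia. In bulk RNA fewer cells of a type and less RNA per cell cannot be told apart.

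**Figure D1:**
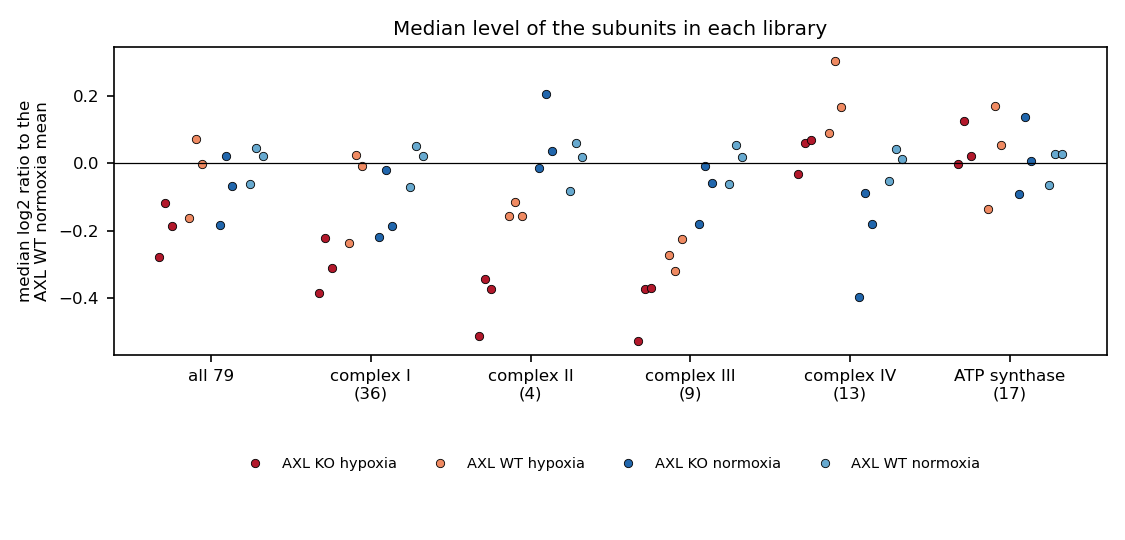
Median log2 difference of each complex's members from their AXL WT normoxia mean, for every library; each point is 1 library and colours mark the groups. Complexes II and III lie lowest in AXL KO hypoxia, as does complex I except that 1 AXL WT hypoxia library falls within its AXL KO hypoxia range, while the complex IV median reaches 0.07 there and 0.30 in AXL WT hypoxia.

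In hypoxia, more members were lower than higher in AXL KO cells. Of the 79 members 32 were lower and 12 higher in AXL KO than in AXL WT at an adjusted p under 0.05 (edgeR quasi-likelihood test over 16767 genes), and 35 were not called. Over all genes tested, 33% were called lower and 29.9% higher, 63% in all, against 55.7% of the members. The median log2 change was -0.21 over the members, whose middle 50% ran from -0.62 to 0.15, and -0.04 over all genes, whose middle 50% ran from -0.85 to 0.69. The largest falls were those of Cox7b2, at 0 counts in AXL KO, then Ndufc1, Ndufb8, Ndufa4, Ndufs1, Ndufa1 and Cyc1, and the largest rises those of Cox7a1 and Atp5s. Of these calls 24 lower and 7 higher held in all 21 alternative settings short of a minimum fold, leaving out AXL WT hypoxia replicates 2 and 3 among them. Without those replicates 27 members were lower and 14 higher, and the member median was -0.06.

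In normoxia, 26 members were lower and 13 higher in AXL KO than in AXL WT, and 40 were not called. Over all genes 30% were lower and 29.7% higher, 59.7% in all, against 49.4% of the members. The median change was -0.07 over the members and -0.03 over all genes. The largest falls were those of Cox7b2, again at 0 counts in AXL KO, then Cox6a2, Uqcrq, Ndufa4, Ndufb6, Ndufs1 and Cyc1, and the largest rises those of Cox7a1, Ndufv3 and Atp5s. In 17 lower and 7 higher members the call held in all 21 settings. The hypoxia and normoxia comparisons of genotype share no library, and 22 members were lower and 7 higher in both. How many of all genes were lower or higher in both was not counted, so these counts have no background beside them.

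Hypoxia changed members in both directions in either genotype. In AXL KO 24 fell and 13 rose (over all genes 30.6% and 27.3%, 58% in all, against 46.8% of members), and in AXL WT 20 fell and 15 rose (over all genes 30.7% and 29.2%, 59.8% in all, against 44.3% of members). The member medians were -0.16 in AXL KO and -0.01 in AXL WT, against -0.03 and -0.02 over all genes. These 2 comparisons share no library: 14 members fell and 7 rose in both. How many of all genes fell or rose in both was likewise not counted. In all 21 settings 14 fell and 6 rose in AXL KO, and 10 fell and 4 rose in AXL WT. Leaving out AXL WT hypoxia replicates 2 and 3 gave 29 that fell and 12 that rose in AXL WT, of which 16 and 9 were among those above. The genotype and oxygen comparisons share libraries with each other, so their values are set side by side without being compared. Groups without overlap were common over all genes. For AXL KO against AXL WT, 31.2% lay wholly above and 31.3% wholly below in hypoxia, and 39.3% and 40.4% in normoxia. For hypoxia against normoxia the shares were 36.4% and 39.5% in AXL KO, and 28% and 33.4% in AXL WT. Overlap is therefore given below as a description.

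Changes were small for most members. They stayed under 1 log2 unit in 71 of 79 members for genotype in hypoxia, 74 for genotype in normoxia, 74 for hypoxia in AXL KO and 76 for hypoxia in AXL WT. Scaling matters at this size. With library size alone in place of TMM factors the median of all genes moved to -0.21 for genotype in hypoxia, -0.29 for genotype in normoxia, -0.23 for hypoxia in AXL KO and -0.32 for hypoxia in AXL WT. The members called lower and higher then numbered 41 and 7, 42 and 7, 47 and 6, and 41 and 4 in these 4 comparisons, with member medians of -0.38, -0.33, -0.37 and -0.30.

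**Figure D2:**
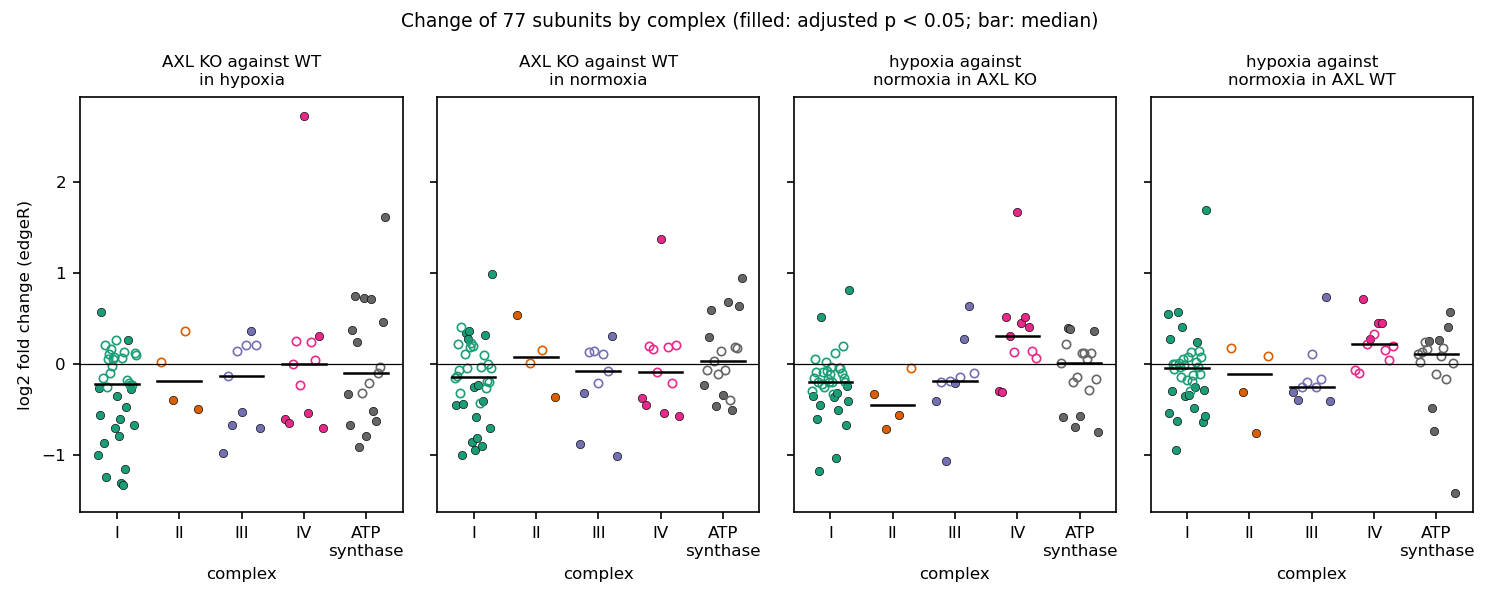
Log2 fold change of 77 members by complex in the 4 comparisons; each point is 1 member, filled where the adjusted p (edgeR) is under 0.05, and Cox6a2 and Cox7b2, at 0 counts in whole groups, are left out. Complex I lies mostly below 0 in both comparisons of genotype, and ATP synthase members lie on both sides.

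In hypoxia, 15 (41.7%) of the 36 complex I members were lower and 2 (5.56%) higher in AXL KO than in AXL WT. In normoxia 12 (33.3%) were lower and 5 (13.9%) higher. Over all genes the shares were 33% and 29.9% in hypoxia, and 30% and 29.7% in normoxia. The 5 were 3 without AXL KO normoxia replicate 2, 8 without AXL WT hypoxia replicate 1 and 9 without AXL WT hypoxia replicates 2 and 3, and the 2 were 5 without those replicates. The 2 became 1 without any 1 AXL WT normoxia library, AXL WT hypoxia replicate 3 or AXL KO hypoxia replicate 2 or 3. Of the 7 nuclear core subunits, which carry the flavin and iron-sulfur clusters, 4 were lower in hypoxia, 3 in normoxia and 0 were higher. Ndufs1, the largest of the iron-sulfur core subunits, had 62.3, 67.3 and 63.4 CPM in AXL KO hypoxia and 134, 145 and 151 CPM in AXL WT hypoxia. It had 89.0, 95.1 and 90.0 CPM in AXL KO normoxia and 162, 176 and 174 CPM in AXL WT normoxia. The groups did not overlap, and AXL KO was lower by -1.16 ± 0.08 (SE) in hypoxia and -0.90 ± 0.08 in normoxia (adjusted p = 3.42e-07 in hypoxia, and -1.06 without AXL WT hypoxia replicates 2 and 3). Ndufv1, which binds NADH and FMN, was lower by -0.67 ± 0.08 and -0.71 ± 0.08 (adjusted p = 2.76e-05 and 1.47e-05), from 65.7 to 72.6 CPM in AXL KO hypoxia against 108 to 112 CPM in AXL WT hypoxia.

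Among the 28 accessory subunits 10 were lower and 2 higher in hypoxia (over all genes 33% and 29.9%). In normoxia 8 were lower and 5 higher (over all genes 30% and 29.7%). Ndufb8, in the membrane arm, had 37.4, 42.5 and 41.5 CPM in AXL KO hypoxia and 81.2, 117 and 103 CPM in AXL WT hypoxia. In normoxia it had 49.6, 55.9 and 51.3 CPM in AXL KO and 87.5, 93.5 and 95.5 CPM in AXL WT. AXL KO lay below AXL WT in every library, by -1.31 ± 0.13 in hypoxia and -0.82 ± 0.13 in normoxia (adjusted p = 3.99e-06 and 0.000138), and 4.3% of Ndufb8 exon bases lie under another gene on the same strand. Ndufb6 was lower by -0.80 ± 0.11 and -0.95 ± 0.11 (adjusted p = 5.24e-05 and 1.13e-05), and Ndufb3 by -0.70 and -0.86 (adjusted p = 0.000449 and 9.45e-05). Ndufc1, another membrane-arm subunit, had 11.1, 12.5 and 12.1 CPM in AXL KO hypoxia and 17.5, 37.1 and 35.5 CPM in AXL WT hypoxia. Its groups did not overlap, but AXL WT hypoxia replicate 1 was far below replicates 2 and 3, and the change of -1.34 ± 0.23 (adjusted p = 0.000306) had no called counterpart in normoxia (-0.43, adjusted p = 0.113). Ndufa1 showed the same pattern, with 19.5, 23.0 and 21.5 CPM in AXL KO hypoxia and 29.5, 55.7 and 42.7 CPM in AXL WT hypoxia (-1.0 ± 0.19, adjusted p = 0.00071). Without AXL WT hypoxia replicates 2 and 3, which leaves 1 library in that group, the changes were -0.56 for Ndufc1, -0.47 for Ndufa1 and -1.01 for Ndufb8. Ndufa2, an accessory subunit, was lower by -0.87 ± 0.16 in hypoxia (adjusted p = 0.000619, and -0.38 without those replicates). Ndufa12, an accessory subunit near the iron-sulfur clusters, was higher by 0.57 ± 0.11 (adjusted p = 0.0011), at 28.0, 29.1 and 29.5 CPM in AXL KO hypoxia against 21.4, 17.7 and 19.4 CPM in AXL WT hypoxia. In complex I, 8 members were called in none of the 5 comparisons, with log2 changes between -0.26 and 0.40.

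Ndufv3, an accessory subunit beside the NADH-binding core, went the other way and was the member that hypoxia raised most in AXL WT. The gene lies on chromosome 17, 31520115 to 31531326 (GRCm38). It had 169, 174 and 170.4 CPM in AXL KO hypoxia, 166, 135 and 178 CPM in AXL WT hypoxia. Its normoxia values were 84.4, 105 and 104 CPM in AXL KO and 45.7, 52.4 and 50.2 CPM in AXL WT. Both hypoxia groups lay above both normoxia groups, AXL KO lay above AXL WT in normoxia, and the genotypes overlapped in hypoxia. Hypoxia raised Ndufv3 by 0.81 ± 0.12 in AXL KO and 1.69 ± 0.12 in AXL WT (adjusted p = 0.000154 and 6.5e-07). AXL KO differed from AXL WT by 0.99 ± 0.12 in normoxia (adjusted p = 2.3e-05) and by 0.10 ± 0.12 in hypoxia (adjusted p = 0.48). The interaction, the oxygen effect in AXL KO minus that in AXL WT, was -0.89 ± 0.17 (adjusted p = 0.00281) and held in all 20 settings short of a minimum fold. The rise of Ndufv3 in AXL WT was 1.76 without AXL WT hypoxia replicates 2 and 3.

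Ndufa4, named for complex I and today assigned to complex IV, was lower in AXL KO and lower in hypoxia. By its symbol it is among the complex I members counted as lower for genotype and for oxygen, and not among those of complex IV. It lies on chromosome 6, 11900292 to 11907497 (GRCm38). It had 22.6, 27.1 and 27.3 CPM in AXL KO hypoxia, 48.8, 72.0 and 61.3 CPM in AXL WT hypoxia. Its normoxia values were 56.4, 64.0 and 54.1 CPM in AXL KO and 116, 115 and 119.6 CPM in AXL WT. AXL KO hypoxia lay below all other libraries and AXL WT normoxia above them, with AXL WT hypoxia and AXL KO normoxia overlapping in between. AXL KO was lower by -1.24 ± 0.14 in hypoxia and -1.01 ± 0.14 in normoxia (adjusted p = 1.32e-05 and 5.6e-05). Hypoxia lowered it by -1.18 ± 0.14 in AXL KO and -0.94 ± 0.14 in AXL WT (adjusted p = 2.72e-05 and 0.000116), and the interaction was -0.24 (adjusted p = 0.392).

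Hypoxia lowered 11 complex I members (30.6%) in AXL KO and 11 (30.6%) in AXL WT, and raised 2 (5.56%) and 6 (16.7%). Over all genes 30.6% fell and 27.3% rose in AXL KO, and 30.7% fell and 29.2% rose in AXL WT. The share that fell was thus near that of all genes. Without AXL KO normoxia replicate 2, or AXL KO hypoxia replicate 1 or 3, 6 or 7 fell in AXL KO. Without AXL WT normoxia replicate 2 or 3, 6 fell in AXL WT, and without AXL WT normoxia replicate 1 or AXL WT hypoxia replicate 3, 3 rose there. Ndufs8, an iron-sulfur core subunit whose promoter is printed above, had 26.8, 31.2 and 30.8 CPM in AXL KO hypoxia against 46.0, 50.6 and 45 CPM in AXL KO normoxia. It had 35.2, 33.3 and 36.2 CPM in AXL WT hypoxia against 50.5, 57.7 and 55.3 CPM in AXL WT normoxia. Hypoxia was lower in every library of either genotype, by -0.67 ± 0.10 in AXL KO and -0.64 ± 0.10 in AXL WT (adjusted p = 0.000164 and 0.000207). Ndufa10, an accessory subunit of the membrane arm, fell by -0.36 and -0.55 (adjusted p = 0.00609 and 0.000374). Ndufv2, a further iron-sulfur core subunit, fell by -0.41 in AXL KO and -0.57 in AXL WT (-0.37 without AXL WT hypoxia replicates 2 and 3), and the AXL KO call was lost without AXL KO hypoxia replicate 1 or AXL KO normoxia replicate 2 or 3. Ndufa6, an accessory subunit of the LYR protein family, rose by 0.52 ± 0.10 in AXL KO and 0.57 ± 0.10 in AXL WT (adjusted p = 0.00123 and 0.000604), to 97.5 to 102 CPM in AXL KO hypoxia against 66.2 to 73.7 CPM in AXL KO normoxia.

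Complex II, succinate dehydrogenase, has 4 subunits and its members differed from each other. Sdha, the flavoprotein that oxidises succinate, had 205, 215 and 214 CPM in AXL KO hypoxia, 202, 225 and 197 CPM in AXL WT hypoxia. In normoxia it had 252, 278 and 271 CPM in AXL KO and 176, 189.8 and 186 CPM in AXL WT. AXL KO normoxia lay above every other library, and the genotypes overlapped in hypoxia. AXL KO was higher by 0.54 ± 0.08 in normoxia (adjusted p = 0.00013) and differed by 0.02 in hypoxia (adjusted p = 0.82). Hypoxia lowered Sdha by -0.34 ± 0.08 in AXL KO (adjusted p = 0.00405), against 0.18 in AXL WT (adjusted p = 0.08), and the interaction of -0.51 ± 0.12 (adjusted p = 0.00686) held in the same 20 settings.

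Sdhb, the iron-sulfur subunit, had 45.8, 55.9 and 50.8 CPM in AXL KO hypoxia against 81.1, 90.8 and 78.5 CPM in AXL KO normoxia. The groups did not overlap, and hypoxia lowered Sdhb by -0.72 ± 0.11 (adjusted p = 0.000232). In AXL WT it fell by -0.31 ± 0.11 (adjusted p = 0.0316), a call lost without any 1 of the 3 AXL WT normoxia libraries, AXL WT hypoxia replicate 2 or AXL KO hypoxia replicate 3, and at -0.17 without AXL WT hypoxia replicates 2 and 3. Sdhc, a membrane anchor, fell in hypoxia by -0.56 ± 0.18 in AXL KO and -0.77 ± 0.18 in AXL WT (adjusted p = 0.0177 and 0.00309). The AXL KO call for Sdhc was lost without AXL KO hypoxia replicate 1 or AXL KO normoxia replicate 2. The other anchor, Sdhd, was lower in AXL KO hypoxia than in AXL WT hypoxia by -0.50 ± 0.14 (adjusted p = 0.00704), at 88.9 to 91.4 CPM against 109 to 159 CPM, and by -0.31 without AXL WT hypoxia replicate 2. Without both AXL WT hypoxia replicates 2 and 3 the fall of Sdhc in AXL WT was -0.43 and the Sdhd difference -0.28.

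In complex III, 4 of 9 members (44.4%) were lower and 1 (11.1%) higher in AXL KO than in AXL WT in hypoxia. In normoxia 3 (33.3%) were lower and 1 (11.1%) higher. Over all genes the shares were 33% and 29.9% in hypoxia, and 30% and 29.7% in normoxia. The 1 higher became 2 in hypoxia without AXL WT hypoxia replicate 1 or 2, and 0 in normoxia without AXL WT normoxia replicate 1 or 3 or AXL KO normoxia replicate 2 or 3. Cyc1, the cytochrome c1 subunit that hands electrons to cytochrome c, had 66.1, 75.2 and 70.9 CPM in AXL KO hypoxia and 139.5, 138 and 140.2 CPM in AXL WT hypoxia. It had 91.3, 105 and 85.8 CPM in AXL KO normoxia and 165, 179 and 173 CPM in AXL WT normoxia. The 3 AXL WT hypoxia libraries lay close together for Cyc1, unlike for many members, and AXL KO was below AXL WT in all libraries. AXL KO was lower by -0.98 ± 0.09 in hypoxia and -0.88 ± 0.09 in normoxia (adjusted p = 3.53e-06 and 6.72e-06). Hypoxia lowered it by -0.41 ± 0.09 in AXL KO (adjusted p = 0.00261) and by -0.31 ± 0.09 in AXL WT (adjusted p = 0.0126), the second lost without AXL WT normoxia replicate 2 or 3.

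Uqcrq, a small subunit, was lower in AXL KO by -0.71 ± 0.11 in hypoxia and -1.01 ± 0.11 in normoxia (adjusted p = 0.000123 and 5.79e-06). It had 70.9, 82.1 and 66.0 CPM in AXL KO normoxia and 143, 155 and 144 CPM in AXL WT normoxia. Uqcrh, the hinge protein that meets cytochrome c1, rose in hypoxia. In CPM it stood at 134, 132 and 134 in AXL KO hypoxia against 76.9, 86.8 and 94.4 CPM in AXL KO normoxia, and 102, 134 and 109.7 CPM in AXL WT hypoxia against 69.8, 73.4 and 66.0 CPM in AXL WT normoxia. Hypoxia was higher in every library, by 0.63 ± 0.11 in AXL KO and 0.73 ± 0.11 in AXL WT (adjusted p = 0.000553 and 0.000188). Uqcr11, another small subunit, had 15.1, 20.7 and 18.7 CPM in AXL KO hypoxia against 32.1, 44.0 and 38.0 CPM in AXL KO normoxia, a fall of -1.06 ± 0.25 (adjusted p = 0.00297).

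Other complex III members moved both ways. Uqcrc1, a core subunit, was lower in AXL KO hypoxia than in AXL WT hypoxia by -0.53 ± 0.09 (adjusted p = 0.000209), at 138, 154 and 154 CPM against 225, 208 and 211 CPM. Its value in normoxia was -0.21 (adjusted p = 0.052). Uqcrfs1, the Rieske iron-sulfur protein, was higher in AXL KO hypoxia by 0.36 ± 0.10 (adjusted p = 0.0092), at 117, 121 and 125 CPM against 108, 83.9 and 90.5 CPM in AXL WT hypoxia. With AXL WT hypoxia replicates 2 and 3 left out the Uqcrfs1 call was lost, as it was with library size alone. Uqcrb and Uqcrc2 were called in none of the 5 comparisons.

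Of the complex IV members as assigned by symbol, more rose in hypoxia than fell. Ndufa4, counted with complex I, fell in both genotypes. In AXL KO 6 of 13 (46.2%) rose and 3 (23.1%) fell, against 27.3% and 30.6% of all genes. In AXL WT 4 (30.8%) rose and 1 (7.69%) fell, against 29.2% and 30.7% of all genes, so the share that rose there was near that of all genes. With library size alone the rises against falls were 3 against 3 in AXL KO and turned to 1 against 4 in AXL WT. The 3 that fell in AXL KO became 1 without AXL KO hypoxia replicate 1 or AXL KO normoxia replicate 2, and the 1 in AXL WT became 2 without AXL WT hypoxia replicates 2 and 3. Cox6a1, the ubiquitous form of a regulatory subunit, had 240.4, 273 and 257 CPM in AXL KO hypoxia against 167, 194 and 181 CPM in AXL KO normoxia. In AXL WT it had 257, 276 and 239 CPM in hypoxia against 152, 164 and 157 CPM in normoxia. Every hypoxia library was above every normoxia library of the same genotype, with rises of 0.51 ± 0.09 in AXL KO and 0.71 ± 0.09 in AXL WT (adjusted p = 0.000552 and 4.63e-05). The genotypes overlapped in hypoxia. In normoxia every AXL KO library was above every AXL WT library, but Cox6a1 was not called for genotype at either oxygen level. Cox7a2l, a factor that joins complexes III and IV, rose by 0.51 in AXL KO and 0.45 in AXL WT (adjusted p = 0.00143 and 0.00313), to 112 to 114 CPM in AXL KO hypoxia against 78.3 to 80.6 CPM in AXL KO normoxia; the AXL WT call was lost with library size alone and its value was 0.68 without AXL WT hypoxia replicates 2 and 3.

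Other complex IV members differed by genotype. Cox8a, a small subunit, was lower in AXL KO by -0.70 ± 0.09 in hypoxia and -0.58 ± 0.09 in normoxia (adjusted p = 4.72e-05 and 0.000194), at 146, 153 and 152 CPM in AXL KO hypoxia against 235, 268 and 231 CPM in AXL WT hypoxia. Cox5a was lower by -0.60 ± 0.09 and -0.37 (adjusted p = 0.000113 and 0.00316), and Cox5b by -0.65 ± 0.11 and -0.45 (adjusted p = 0.000233 and 0.003). Both surround the catalytic core encoded in mitochondrial DNA. Within these, the groups did not overlap at either oxygen level: Cox5b had 47.7 to 54.9 CPM in AXL KO hypoxia against 72.7 to 88.3 CPM in AXL WT hypoxia.

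Of the tissue forms of complex IV subunit 7a, one was higher and the other lower in AXL KO, while hypoxia raised both in AXL KO. Cox7a1, the heart and skeletal muscle form (chromosome 7, 30184144 to 30186078, GRCm38), had 7.57, 9.36 and 9.02 CPM in AXL KO hypoxia, 2.14, 0.586 and 1.2 CPM in AXL WT hypoxia. Its normoxia values were 2.02, 3.07 and 3.09 CPM in AXL KO and 0.881, 1.19 and 1.08 CPM in AXL WT. AXL KO hypoxia lay above all other libraries. AXL KO was higher by 2.72 ± 0.37 in hypoxia and 1.37 ± 0.36 in normoxia (adjusted p = 6.1e-05 and 0.00613), and hypoxia raised it by 1.67 ± 0.35 in AXL KO (adjusted p = 0.00163), against 0.32 in AXL WT (adjusted p = 0.476). The interaction of 1.34 ± 0.51 was not called (adjusted p = 0.0667). Without AXL WT hypoxia replicates 2 and 3 Cox7a1 differed by 2.01 for genotype in hypoxia and by 1.04 for hypoxia in AXL WT. Cox7a2, the ubiquitous form (chromosome 9, 79755361 to 79759878), was lower in AXL KO by -0.55 ± 0.13 at either oxygen level (adjusted p = 0.00295 in hypoxia and 0.00304 in normoxia), at 75.4, 83.7 and 79 CPM in AXL KO hypoxia against 96.1, 137 and 114 CPM in AXL WT hypoxia, and by -0.28 in hypoxia without AXL WT hypoxia replicates 2 and 3. Hypoxia raised Cox7a2 by 0.45 ± 0.13 in either genotype, calls that were lost with library size alone, in AXL KO without AXL KO normoxia replicate 1, and in AXL WT without AXL WT hypoxia replicates 2 and 3.

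Cox6a2, the heart and skeletal muscle partner of Cox6a1, had 0, 0 and 0 counts in AXL KO hypoxia, 0, 1 and 0 in AXL WT hypoxia, 46, 26 and 25 in AXL KO normoxia, against 93, 91 and 65 in AXL WT normoxia. It was near or at 0 in all 6 hypoxia libraries. Hypoxia was at least 24.7-fold lower in AXL KO, taking 3 counts over the group as the floor, and in AXL WT the ratio of summed counts was 202-fold lower (95% counting interval 35.9 to 8010). In normoxia AXL KO was lower by -1.39 ± 0.38 (adjusted p = 0.00924), a call lost without AXL KO normoxia replicate 3. Cox7b2, a paralog of Cox7b, had 0 counts in all 6 AXL KO libraries, against 20, 42 and 39 in AXL WT hypoxia and 59, 56 and 63 in AXL WT normoxia. AXL KO was at least 32.5-fold lower in hypoxia and at least 60.7-fold lower in normoxia, on the same floor. Markers of striated muscle summed to 0.528 to 0.739 CPM in AXL KO hypoxia, 0.574 to 1.87 in AXL WT hypoxia, 0.161 to 0.26 in AXL KO normoxia and 0.419 to 0.521 in AXL WT normoxia, with Ckm, Acta1 and Myh7 at 0 in AXL KO normoxia.

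**Figure D3:**
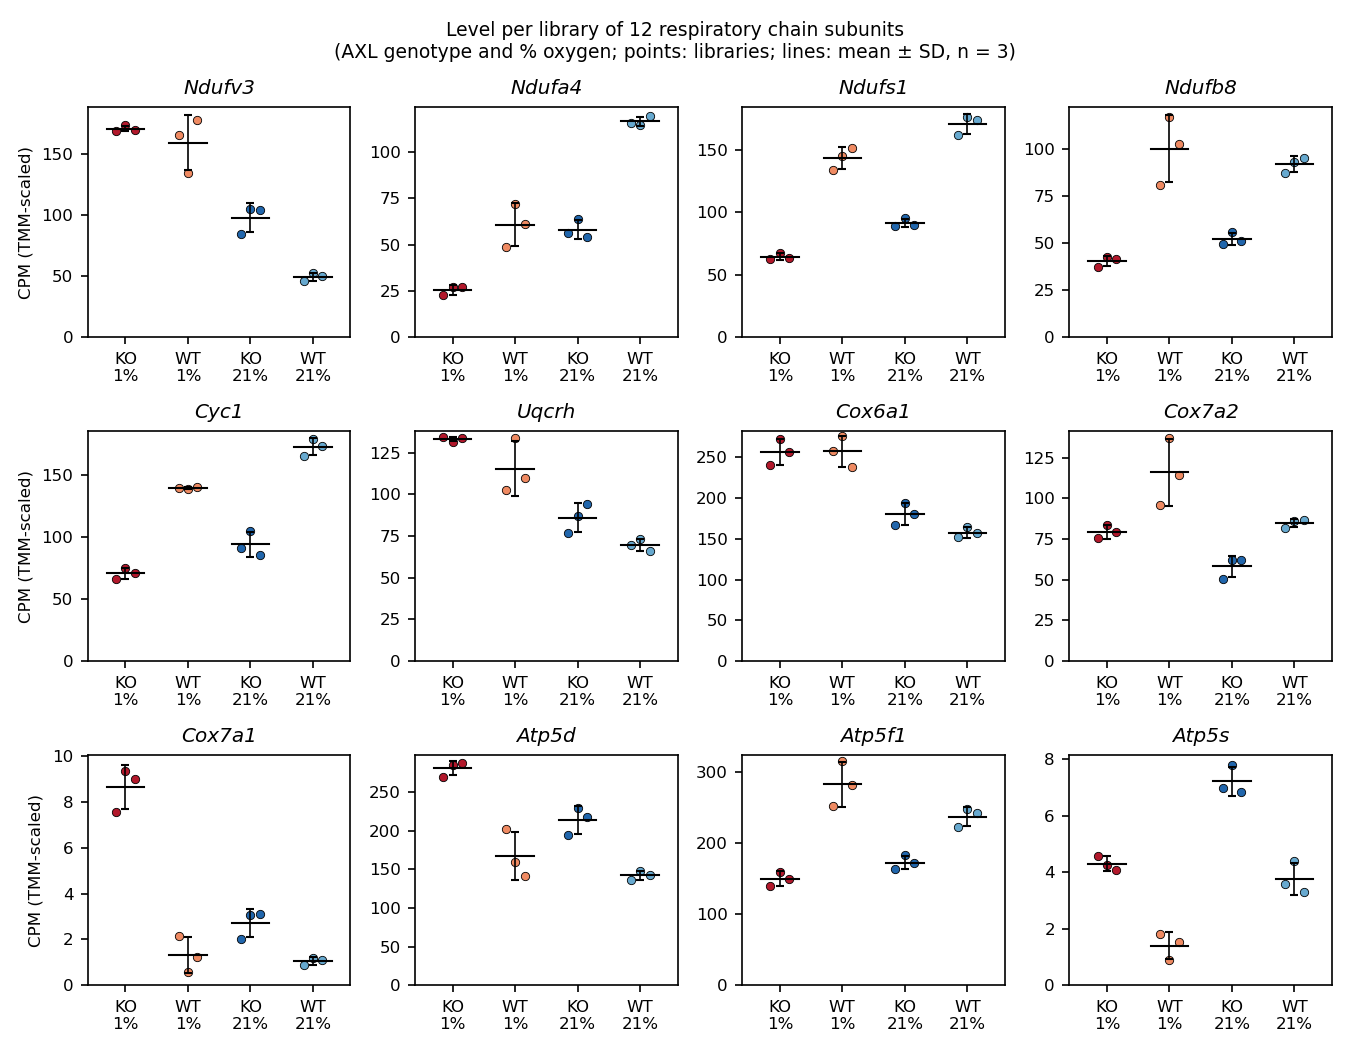
CPM of 12 members in every library, 1 panel per member, on linear axes that start at 0, with points for libraries and lines for the group mean ± SD (n = 3). Ndufv3, Uqcrh and Cox6a1 are higher in both hypoxia groups, Ndufs1, Ndufb8 and Cyc1 lower in both AXL KO groups, and Cox7a1 highest in AXL KO hypoxia.

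ATP synthase members were called in both directions by genotype. In hypoxia 7 of 17 (41.2%) were higher and 6 (35.3%) lower in AXL KO than in AXL WT. In normoxia 5 (29.4%) were higher and 4 (23.5%) lower. Over all genes 29.9% were higher and 33% lower in hypoxia, and 29.7% and 30% in normoxia. The 4 that were lower in normoxia became 1 without AXL KO normoxia replicate 1 or any 1 AXL WT normoxia library, and 2 without AXL KO normoxia replicate 3 or any 1 AXL KO hypoxia library. Of the 5 subunits of the F1 head, which makes ATP, 3 were higher and 2 lower in AXL KO hypoxia. Atp5d, the δ subunit of the central stalk, had 271, 286 and 288 CPM in AXL KO hypoxia against 202, 159 and 142 CPM in AXL WT hypoxia, and 195, 230.2 and 218 CPM in AXL KO normoxia against 136, 148 and 143 CPM in AXL WT normoxia. AXL KO was above AXL WT in hypoxia and in normoxia without overlap, by 0.74 ± 0.12 and 0.59 ± 0.12 (adjusted p = 0.000235 and 0.00122), and by 0.47 in hypoxia without AXL WT hypoxia replicates 2 and 3. Atp5c1, the γ subunit, was higher by 0.37 ± 0.09 and 0.29 ± 0.09 (adjusted p = 0.00418 and 0.0169); these calls were lost with library size alone, the first without AXL WT hypoxia replicates 2 and 3, and the second without AXL KO normoxia replicate 2 or 3.

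The α and β subunits, which form the catalytic ring of the head, were lower in AXL KO hypoxia. Atp5b, the β subunit, had 615, 649.9 and 665 CPM in AXL KO hypoxia, 843, 1246 and 991 CPM in AXL WT hypoxia. In normoxia it had 918, 1066 and 911 CPM in AXL KO and 963, 1045 and 1034 CPM in AXL WT. AXL KO hypoxia lay below every other library. AXL KO was lower by -0.67 ± 0.13 in hypoxia (adjusted p = 0.000721), hypoxia lowered it by -0.58 ± 0.13 in AXL KO (adjusted p = 0.00215), and the 2 other comparisons gave -0.07 for genotype in normoxia and 0.02 for hypoxia in AXL WT. Without AXL WT hypoxia replicates 2 and 3 the last value was -0.25 and the genotype difference in hypoxia -0.39. Atp5a1, the α subunit, was lower in AXL KO hypoxia by -0.33 ± 0.09 (adjusted p = 0.00583), at 647 to 689.9 CPM against 808 to 923 CPM in AXL WT hypoxia.

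The peripheral stalk, which holds the head still, was split as well. Atp5f1, its b subunit, had 139.8, 159.9 and 150.1 CPM in AXL KO hypoxia against 252, 315 and 282 CPM in AXL WT hypoxia, and 163, 183 and 171 CPM in AXL KO normoxia against 222, 248 and 242 CPM in AXL WT normoxia. AXL KO was lower by -0.92 ± 0.10 and -0.46 ± 0.10 (adjusted p = 1.05e-05 and 0.0017). Atp5j, coupling factor 6 of the same stalk, was higher in AXL KO by 0.71 ± 0.11 and 0.68 ± 0.11 (adjusted p = 0.000113 and 0.000153), at 140.4, 145 and 142 CPM in AXL KO hypoxia against 74.3, 92.3 and 93.8 CPM in AXL WT hypoxia. Atp5o, which joins stalk and head, was higher by 0.46 ± 0.10 and 0.64 ± 0.10 (adjusted p = 0.00158 and 0.000136), and 12.3% of its exon bases lie under the second Atp5o identifier, which had 0 counts. Atp5h, the d subunit of the stalk, was called at neither oxygen level (-0.21 and -0.07, adjusted p = 0.0612 and 0.508). Of these 4 stalk subunits 1 was lower and 2 were higher in AXL KO at both oxygen levels, each in all 21 settings short of a minimum fold.

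Atp5s, named for coupling factor B (chromosome 12, 69724950 to 69744660, GRCm38), had 4.58, 4.23 and 4.07 CPM in AXL KO hypoxia, 1.79, 0.891 and 1.52 CPM in AXL WT hypoxia. Its normoxia values were 6.97, 7.8 and 6.85 CPM in AXL KO and 3.56, 4.39 and 3.3 CPM in AXL WT. AXL KO was above AXL WT at each oxygen level, and hypoxia below normoxia in each genotype, with no overlap. AXL KO was higher by 1.61 ± 0.24 in hypoxia and 0.94 ± 0.22 in normoxia (adjusted p = 0.000102 and 0.00307). Hypoxia lowered it by -0.75 ± 0.22 in AXL KO (adjusted p = 0.0128), a call lost without AXL KO hypoxia replicate 3, and by -1.42 ± 0.23 in AXL WT (adjusted p = 0.000287).

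Atp5g1, Atp5g2 and Atp5g3 encode the same mature subunit c of the membrane ring and were not called alike. Atp5g3, at 108, 120.2 and 118 CPM in AXL KO hypoxia against 159, 233 and 211 CPM in AXL WT hypoxia, was lower by -0.80 ± 0.13 (adjusted p = 0.000267). Atp5g2, at 25.9, 25.8 and 26.7 CPM in AXL KO hypoxia against 20.0, 12.8 and 14.6 CPM in AXL WT hypoxia, was higher by 0.73 ± 0.15 (adjusted p = 0.00118). Atp5g1 was -0.33 there (adjusted p = 0.0582). Hypoxia lowered Atp5g1 by -0.70 ± 0.14 in AXL KO and -0.49 ± 0.14 in AXL WT (adjusted p = 0.0012 and 0.00983, the second lost without AXL WT normoxia replicate 3), Atp5g3 by -0.57 ± 0.13 in AXL KO (adjusted p = 0.00302), and Atp5g2 by -0.74 ± 0.15 in AXL WT (adjusted p = 0.00115). Without AXL WT hypoxia replicates 2 and 3 the genotype differences in hypoxia were -0.47 for Atp5g3 and 0.38 for Atp5g2, and the falls in AXL WT were -0.39 for Atp5g2 and -0.84 for Atp5g1.

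**Figure D4:**
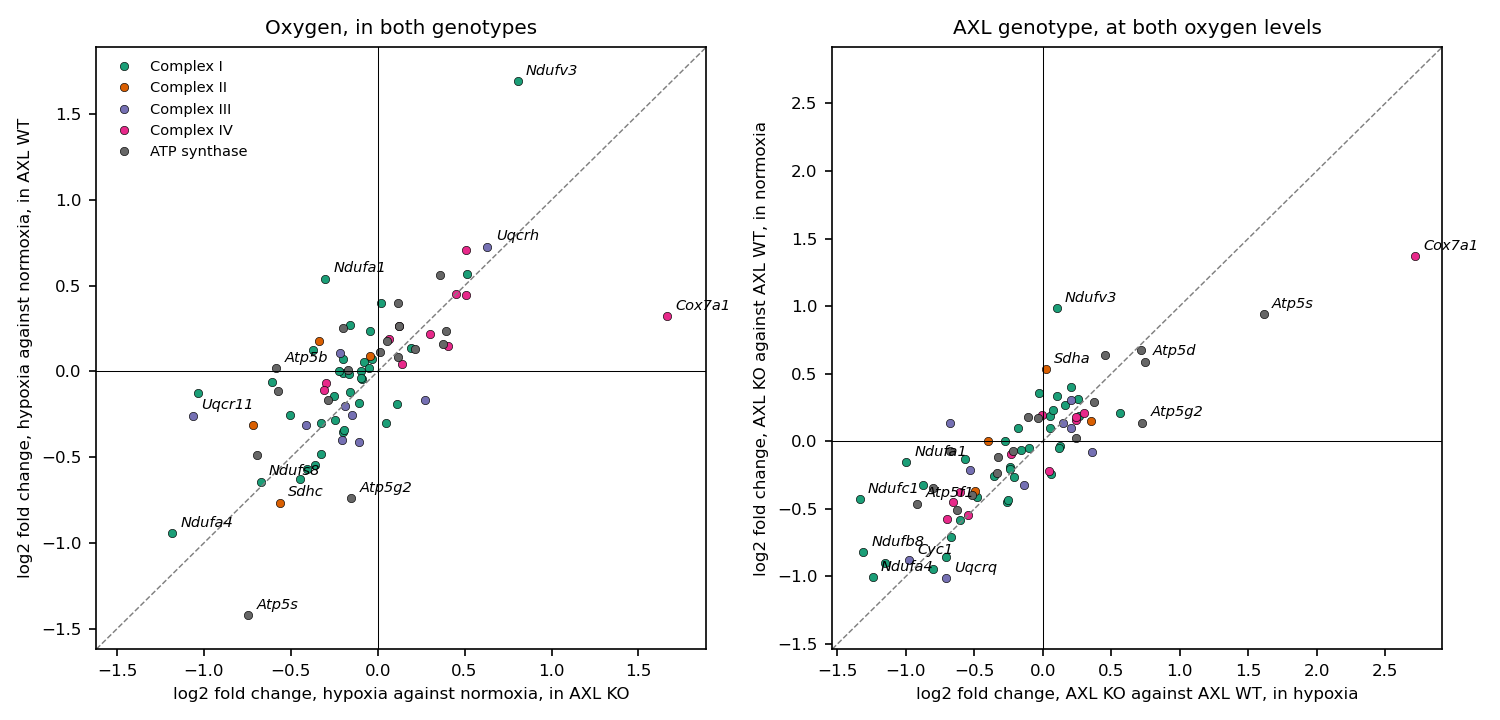
Left, log2 fold change of 77 members with hypoxia in AXL KO (x) and in AXL WT (y); right, log2 fold change of AXL KO against AXL WT in hypoxia (x) and in normoxia (y); the dashed line marks equal changes and colours mark complexes. Ndufv3 stands off the line in both panels, and Ndufa4 lies below 0 on all axes.

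The interaction asks whether AXL changed the response to oxygen. It was called for 9 of 79 members, 8 lower and 1 higher, or 11.4%, against 28.8% of all genes (15.3% lower and 13.5% higher). Ndufv3 and Sdha, given above, were the 2 whose calls held in all 20 settings short of a minimum fold of 1.5, under which 0 interactions were called. The other 7 calls were each lost under 4 to 15 of 20 settings, single libraries among them. With AXL WT hypoxia replicates 2 and 3 left out, 6 members were called lower and 6 higher, of which 4 and 0 were among the 9.

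Cox4i1 and Cox4i2, the ubiquitous and the low-oxygen form of complex IV subunit 4, were counted apart. Cox4i1 had 395, 409 and 412 CPM in AXL KO hypoxia, 464, 517 and 442 CPM in AXL WT hypoxia. In normoxia it had 254, 283 and 267 CPM in AXL KO and 314, 351 and 338 CPM in AXL WT. It rose in hypoxia by 0.60 ± 0.09 in AXL KO and 0.51 ± 0.09 in AXL WT (adjusted p = 0.000123 and 0.000368), with no overlap within a genotype. Cox4i2 had few counts: 5, 10 and 3 in AXL KO hypoxia, 13, 16 and 23 in AXL WT hypoxia, 5, 11 and 10 in AXL KO normoxia, against 6, 3 and 8 in AXL WT normoxia. It rose in AXL WT by 1.89 ± 0.47 (adjusted p = 0.00467), a call lost without AXL WT hypoxia replicates 2 and 3 (1.49), and was -0.14 in AXL KO (adjusted p = 0.837). Ndufa4l2, a low-oxygen paralog of Ndufa4, had 0, 0 and 1 counts in AXL KO hypoxia, 0, 0 and 0 in AXL WT hypoxia, 12, 10 and 4 in AXL KO normoxia, against 1, 1 and 0 in AXL WT normoxia, too few for the test.

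Lonp1, the mitochondrial protease known to degrade Cox4i1, rose in hypoxia by 1.16 ± 0.09 in AXL KO and 1.28 ± 0.09 in AXL WT (adjusted p = 9.59e-07 and 3.62e-07). Higd1a, a hypoxia-induced protein that binds complex IV, rose by 1.67 ± 0.14 and 2.26 ± 0.14 (adjusted p = 2.2e-06 and 2.47e-07). It had 153, 153 and 151 CPM in AXL KO hypoxia against 39.6, 52.8 and 51.4 CPM in AXL KO normoxia.

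Subunits encoded in mitochondrial DNA were mostly lower in hypoxia among those that could be tested. Of 13, 7 passed the filter, and the other 6 had 0 to 10 counts per library. In AXL KO hypoxia lowered 6 of 7 and raised 0. In AXL WT it lowered 4 and raised 1 (3 without AXL WT hypoxia replicate 1). Over all genes 30.6% fell and 27.3% rose in AXL KO, and 30.7% fell and 29.2% rose in AXL WT. mt-Cytb, the cytochrome b of complex III, had 724, 809 and 858 CPM in AXL KO hypoxia against 2304, 2509.5 and 2429 CPM in AXL KO normoxia, and 725, 439.9 and 705 CPM in AXL WT hypoxia against 2283, 2178 and 1902 CPM in AXL WT normoxia. The falls were -1.60 ± 0.17 and -1.77 ± 0.17 (adjusted p = 1.09e-05 and 4.33e-06). mt-Co1, the catalytic subunit of complex IV, had 6194, 7253 and 5920.5 CPM in AXL WT hypoxia against 3809.9, 3697 and 3303 CPM in AXL WT normoxia, a rise of 0.84 ± 0.10 (adjusted p = 1.99e-05). mt-Nd2, of complex I, fell by -2.87 ± 0.22 in AXL KO (adjusted p = 1.35e-06), to 111, 119.5 and 132 CPM against 853, 938 and 868 CPM in AXL KO normoxia.

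Assembly factors were also followed. Of 15 for complex I, hypoxia lowered 8 and raised 2 in AXL KO, and lowered 9 and raised 2 in AXL WT, where the shares over all genes are the 30.6% and 27.3% in AXL KO and the 30.7% and 29.2% in AXL WT given above. Of 19 tested for complex IV it lowered 11 and raised 3 in AXL KO, and lowered 10 and raised 4 in AXL WT. In AXL KO the 2 raised for complex I became 1 without any 1 AXL WT normoxia library, AXL KO normoxia replicate 1 or 3 or AXL KO hypoxia replicate 1, and the 3 for complex IV became 1 without any 1 AXL KO normoxia library or AXL KO hypoxia replicate 1. Sco1, which delivers copper to cytochrome oxidase, fell by -1.49 ± 0.15 in AXL KO and -1.05 ± 0.15 in AXL WT (adjusted p = 9.68e-06 and 9.67e-05), while Cox17, the copper chaperone before it, rose by 0.93 ± 0.15 and 1.12 ± 0.15 (adjusted p = 0.000221 and 5.42e-05). By genotype, Ndufaf4, a complex I assembly factor, was lower in AXL KO by -1.52 ± 0.22 in hypoxia and -1.91 ± 0.22 in normoxia (adjusted p = 0.000103 and 1.54e-05). Nubpl, which loads iron-sulfur clusters into complex I, was higher by 1.64 ± 0.14 and 0.83 ± 0.13 (adjusted p = 1.19e-06 and 0.000174).

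Of 77 mitochondrial ribosomal proteins tested, which make the subunits encoded in mitochondrial DNA, 35 were lower and 15 higher in AXL KO hypoxia than in AXL WT hypoxia, and 42 were lower and 11 higher in AXL KO normoxia than in AXL WT normoxia (7 higher without AXL KO normoxia replicate 2). Over all genes 33% were lower and 29.9% higher in hypoxia, and 30% and 29.7% in normoxia. Hypoxia lowered 35 and raised 13 in AXL KO (over all genes 30.6% and 27.3%). It lowered 40 and raised 9 in AXL WT (over all genes 30.7% and 29.2%). Among 13 regulators of mitochondrial gene expression, hypoxia lowered 5 and raised 5 in AXL KO, and lowered 4 and raised 4 in AXL WT. Myc, a growth-promoting transcription factor, was among those that fell in both genotypes. It had 5.63, 8.38 and 7.92 CPM in AXL KO hypoxia against 75.4, 63.6 and 63.5 CPM in AXL KO normoxia, and 17.4, 15.8 and 15 CPM in AXL WT hypoxia against 69.8, 63.5 and 83.0 CPM in AXL WT normoxia. The falls were -3.21 ± 0.17 and -2.17 ± 0.16 (adjusted p = 1.21e-07 and 7.74e-07). Nrf1 and Yy1, whose words were sought in the promoters, rose by 0.65 ± 0.11 and 1.14 ± 0.13 in AXL KO hypoxia, and by 0.63 ± 0.11 and 1.01 ± 0.13 in AXL WT hypoxia.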

How the data were processed

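RNA was measured in 12 libraries. Per the submitters' processing notes, reads were checked with FastQC 0.11.5 and aligned with STAR 2.5.1b to GRCm38. The deposited values are counts of fragments per gene, made by the authors with featureCounts (1.6.0 per the file headers, 1.4.6 in the processing notes), on the reverse strand (setting 2), with both ends mapped and without chimeric or multiply mapped fragments (Ensembl release 93). Symbols came from GENCODE M21 by gene ID. Groups came from the sample titles, since the genotype tag contradicts the title in 6 samples.

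In R 4.3.3, edgeR 4.0.16 kept 16767 genes (filterByExpr), scaled them by TMM and fitted 1 mean per group to all 12 libraries with a robust quasi-likelihood model (8 residual degrees of freedom; the common biological coefficient of variation was 0.201). A call needed an adjusted p (Benjamini-Hochberg) under 0.05 over all genes tested, and every adjusted p is edgeR's. Values after ± are standard errors of log2 fold changes, computed as the absolute change over the square root of F, or standard deviations of CPM. CPM use TMM scaling. Library totals of 45297267 to 58775422 set the precision, and floors and intervals cover counting error only. The procedure was tested on simulated data with the same spread in every library and few changed genes. That setting differs from these data, so it does not show how the fit performs under their uneven spread and many calls.

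The members and lists were chosen with earlier results of these data known. Named were, per comparison and complex, up to 2 called members of largest change in each direction, 11 core subunits, paralogs, members under the filters, and in other lists up to 2 called genes of smallest adjusted p per direction. Some further members are given, and some genes that meet the rule are not reported for length; 1 member's results are not reported here. Alternatives were RLE factors, library size alone, no filter, 10 counts in 3 libraries, DESeq2 1.42.0, a replicate block, the 6 compared libraries, each library left out in turn, a minimum fold of 1.5 and, because earlier results of these data were known, limma-voom 3.58.1 with a weight per group and leaving out AXL WT hypoxia replicates 2 and 3. Figures were drawn with matplotlib 3.10.9.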

Additional observations from a re-analysis of the deposited data

Results flagged for a closer look

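The effect of oxygen differed between AXL KO and AXL WT cells for 9 members by the interaction term (edgeR, adjusted p under 0.05). The log2 difference, oxygen effect in AXL KO minus that in AXL WT, was -0.84 ± 0.27 (SE) for Ndufa1, -0.91 ± 0.31 for Ndufc1, -0.43 ± 0.14 for Ndufa11, -0.38 ± 0.12 for Ndufb10 and -0.89 ± 0.17 for Ndufv3 in complex I. It was -0.51 ± 0.12 for Sdha in complex II and 0.44 ± 0.14 for Uqcrfs1 in complex III. In ATP synthase it was -0.46 ± 0.14 for Atp5f1 and -0.60 ± 0.18 for Atp5b. The adjusted p-values ran from 0.00281 for Ndufv3 to 0.0488 for Ndufc1. The calls for Ndufv3 and Sdha held in all 20 alternative settings short of a minimum fold of 1.5, under which 0 interactions were called. Those for Ndufa1, Ndufc1, Ndufa11, Atp5f1 and Uqcrfs1 were lost with AXL WT hypoxia replicates 2 and 3 left out, and those for Atp5b and Ndufb10 were lost without AXL KO normoxia replicate 2, among other single libraries.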

How the results depend on the processing

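Over 8500 values of 78 members under all settings, 7641 kept their side of the threshold, 545 lost their call, 299 gained one and 15 reversed. A change of sign counted as reversed only where either fit was called, so the 7641 include uncalled values that changed sign. With library size alone, the members called for genotype were 7 higher in hypoxia and 7 higher and 42 lower in normoxia. Those called for oxygen were then 6 higher and 47 lower in AXL KO, 4 higher and 41 lower in AXL WT, and the interaction had 3 higher and 3 lower. The share of calls over all genes that were higher moved to 39.2% from 47.5% for genotype in hypoxia, 35.8% from 49.7% in normoxia, 36% from 47.1% for oxygen in AXL KO, 33.2% from 48.8% in AXL WT, and 55.1% from 46.9% for the interaction.

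With a minimum fold of 1.5, 2 higher and 11 lower remained for genotype in hypoxia, 2 and 9 in normoxia, 2 and 4 for oxygen in AXL KO, 1 and 3 in AXL WT, and 0 and 0 for the interaction. Voom with group weights gave 20 higher for genotype in normoxia, 8 higher and 11 lower for oxygen in AXL WT, and 2 higher and 5 lower interactions. The 6 compared libraries alone gave 7 higher for genotype in hypoxia, 20 higher in normoxia, and 8 higher and 11 lower for oxygen in AXL WT. No filter gave 9 higher for oxygen in AXL WT and 0 higher and 5 lower interactions, DESeq2 gave 4 higher and 13 lower interactions, and RLE factors gave 0 higher. Without AXL WT hypoxia replicates 2 and 3 there were 21 higher for genotype in normoxia and 6 higher interactions. The comparison of genotype in normoxia holds no AXL WT hypoxia library. Those libraries, with a biological coefficient of variation of 0.4, enter it only through the spread, filter and scaling that all groups share. Which of these moved its counts was not tested, nor was the cause of the other moves.

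Leaving out 1 library at a time gave 9 to 14 higher and 27 to 37 lower for genotype in hypoxia, 9 to 18 and 18 to 31 in normoxia, 8 to 14 and 15 to 29 for oxygen in AXL KO, 8 to 19 and 12 to 22 in AXL WT, and 0 to 7 and 2 to 15 for the interaction. The lowest came without AXL KO normoxia replicate 2 (9 higher in normoxia, 15 lower for oxygen in AXL KO, 2 lower interactions), AXL KO normoxia replicate 1 (8 higher in AXL KO) and AXL WT normoxia replicates 1 and 3 (8 higher and 12 lower in AXL WT). Without AXL WT hypoxia replicate 1 the interaction had 7 higher and 15 lower.

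Samples that share a replicate number did not deviate together (r from -0.05 to 0.10 over 18 pairs, median 0.01), so the numbers were not taken as pairs. A replicate block gave 0 higher interactions and moved the other counts by less than 1.5 times.

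With library size alone, hypoxia in AXL WT reversed for Ndufs3 (-0.054), Ndufb11 (-0.24), Ndufb5 (-0.22), Atp5f1 (-0.043), Ndufa13 (-0.30), Atp5h (-0.031), Cox7c (-0.26), Cox6c (-0.030), Atp5o (-0.28), Ndufa7 (-0.29) and Ndufa11 (-0.021), and hypoxia in AXL KO for Atp5a1 (-0.20). Without AXL WT hypoxia replicates 2 and 3, Uqcr11 turned to 0.12 for genotype in hypoxia, Atp5b to -0.25 for hypoxia in AXL WT and the Ndufs6 interaction to 0.40. Depth limits Cox6a2, Cox7b2 and Ndufs5, which have at most 93 counts in a library, and Cox4i2.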

Other observations

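Cytochrome c and the enzymes that feed ubiquinone moved both ways by genotype, while most of those called for oxygen fell in hypoxia. Of 9, hypoxia lowered 5 and raised 1 in AXL KO, and lowered 6 and raised 2 in AXL WT. Over all genes 30.6% fell and 27.3% rose in AXL KO, and 30.7% fell and 29.2% rose in AXL WT. Cycs, cytochrome c itself, was lower in AXL KO hypoxia than in AXL WT hypoxia by -1.37 ± 0.19 (SE, edgeR adjusted p = 6.39e-05), and its interaction was -1.05 ± 0.26 (adjusted p = 0.011), or -0.68 without AXL WT hypoxia replicates 2 and 3. Etfdh, which passes electrons from fatty acid oxidation to ubiquinone, was lower by -1.27 ± 0.16 (adjusted p = 3.89e-05, and -0.80 without AXL WT hypoxia replicates 2 and 3), while Etfa, a subunit of its electron donor, was higher by 0.75 ± 0.12 (adjusted p = 0.000173, and 0.50 without those replicates). Hypoxia lowered Etfb, the partner of Etfa, by -1.58 ± 0.16 in AXL KO and -1.36 ± 0.16 in AXL WT (adjusted p = 8.08e-06 and 1.96e-05). Of 13 genes of ubiquinone synthesis, 7 were lower and 5 higher in AXL KO hypoxia than in AXL WT hypoxia. Over all genes 33% were lower and 29.9% higher in that comparison. Of the same 13 genes, hypoxia lowered 7 and raised 1 in AXL KO, and lowered 8 and raised 2 in AXL WT. Coq8b, an atypical kinase of that pathway, was higher in AXL KO by 1.59 ± 0.20 in hypoxia and 2.18 ± 0.20 in normoxia (adjusted p = 3.45e-05 and 2.27e-06).

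Genes outside the members were set over the 12 libraries against the median of the members' log2 CPM, each centred on its own mean. The most alike were Atox1, a copper chaperone (r = 0.97), Psma2, a proteasome subunit (r = 0.929), and Mrps25, a mitochondrial ribosomal protein (r = 0.926). The libraries share groups and scaling, and the values are a description.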
